A study of Drosophila melanogaster with 12 samples.

Results

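Head transcriptomes of 2 independent null alleles of *tbph*, *tbph*Δ23 and *tbph*Δ142, were set against each other, to describe what separates fly lines that lack the same gene. The comparison used 6 of the 12 arrays of the study, the 3 labelled *tbph*Δ142 and the 3 labelled *tbph*Δ23, as their labels name them. Both groups were heads of adult *Drosophila melanogaster* collected 60 h after eclosion, from flies on standard food without RU-486. The other arrays, 3 of *w1118* controls on the same food and 3 of a neuronal rescue, entered the statistical fit and are given beside the alleles for reference. The rescue flies were homozygous for *tbph*Δ23, carried *elav*-GS-GAL4 and UAS-TBPH, and received 5 mM RU-486 in their food over 60 h, the drug that switches on TBPH in neurons. The labels call the arrays biological replicates, and the study gives both mutants as homozygous, while neither the number nor the sex of the heads behind each array could be read from the labels or methods. Each allele is 1 stock, kept over a *CyO*-GFP balancer, so a difference between the alleles and a difference between the stocks cannot be told apart.

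*tbph* encodes the fly homologue of TDP-43, a nuclear protein that binds RNA and acts in splicing and in the stability and transport of transcripts. Loss or clumping of TDP-43 marks most cases of amyotrophic lateral sclerosis. Independent alleles are used because changes shared by them are more readily assigned to the gene, whereas each stock also carries its own genetic background.

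Each value is a log2 intensity on a Drosophila Genome 2.0 array, so a difference of 1 is a 2-fold difference, and differences are given as *tbph*Δ142 minus *tbph*Δ23 unless stated otherwise. Of 11982 genes tested, 418 differed between the alleles at a Benjamini-Hochberg adjusted p under 0.05 in limma, which is 3.49%. *tbph*Δ142 was higher in 170 of them (1.42% of genes) and lower in 248 (2.07%), and 1961 genes had an unadjusted p under 0.05. Most differences were small, with a median size of 0.53 among the 418 genes, and 42 genes differed at least 2-fold, 19 of them higher and 23 lower in *tbph*Δ142. In all 418 genes the 3 arrays of one allele lay wholly above the 3 of the other, as they did in 24.1% of all genes. As a Euclidean distance over all genes in log2 units, arrays lay a mean of 21.4 apart within *tbph*Δ23, 21.6 within *tbph*Δ142 and 29.3 between the alleles, and 48.9 and 52.8 from *w1118*, so the alleles lay closer to each other than to the controls. Against *w1118*, 2550 genes passed in *tbph*Δ23 (21.3%) and 2996 in *tbph*Δ142 (25.0%), in comparisons that share the control arrays. Probe sets that name no single gene were kept apart, and 43 of 5122 differed between the alleles (0.840%). The share of genes called rose from 0.300% among the 2996 genes of lowest mean intensity to 5.91% among the 2996 of highest. The median standard error was 0.0928, with 3 arrays per allele. Leaving out any single array except *tbph*Δ23 replicate 1 reduced the count by more than 1.5 times. It was 134 without *tbph*Δ23 replicate 3 and 212 without replicate 2, and 197, 233 and 193 without *tbph*Δ142 replicates 1, 2 and 3.

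Markers of head tissue were present in both alleles. The mean log2 level of 7 measured neuronal markers, such as the RNA-binding protein gene *elav*, was 7.89 to 7.99 in *tbph*Δ23 against 7.73 to 7.89 in *tbph*Δ142. That of 6 photoreceptor markers was 12.51 to 12.53 against 12.48 to 12.49. None of the measured members of the neuron, photoreceptor, glia, muscle or gut lists passed the test between the alleles. All 7 neuronal markers stood below 0, between -0.25 and -0.05, and 2 of them were lower without overlap. Of all genes 50.7% stood below 0 and 13.4% were lower without overlap. Below 0 also stood 5 of 6 photoreceptor and 5 of 6 glial markers, whereas 5 of 5 fat body and 7 of 9 hemocyte markers stood above 0. The 3′ control probe set for actin exceeded its 5′ partner, a sign of RNA quality, by 2.67 to 3.03 on the *tbph*Δ142 arrays against 2.26 to 2.42 on the *tbph*Δ23 arrays, without overlap. For GAPDH the excess was 1.91 to 2.11 against 1.84 to 1.90. The part of these differences in the results was not tested.

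The targeted gene itself set the alleles apart. *TBPH*, on chromosome arm 2R, is read by 2 probe sets that name no other gene. The bright one, 1635758_s_at, read 8.13, 8.32 and 8.11 in *tbph*Δ23 and 5.45, 5.32 and 5.52 in *tbph*Δ142, with *w1118* at 7.96, 8.02 and 7.97. Every *tbph*Δ142 array thus lay far below every *tbph*Δ23 array, and the *tbph*Δ23 arrays lay just above all of *w1118*. The difference between the alleles was -2.76 ± 0.14 (log2 ± SE, limma adjusted p = 1.51e-06, where 3.57% of probe sets passed), a 6.76-fold lower signal in *tbph*Δ142. Against *w1118* the probe set was lower by 2.55 in *tbph*Δ142 (-2.55, adjusted p = 2.11e-07) and stood 0.20 higher in *tbph*Δ23 (adjusted p = 0.350). The rescue arrays read 9.13, 9.63 and 9.78, the highest of the series. The dim probe set, 1638268_at, was near the bottom of the scale in all groups, at 3.47 ± 0.14 (SD, n = 3) in *tbph*Δ23 and 3.19 ± 0.094 in *tbph*Δ142, a difference that did not pass the test (-0.28, adjusted p = 0.134). The labels and methods do not place the probe sets relative to the deletions, so the signal in *tbph*Δ23 checks neither the deletion nor the label. Collapsed to their median, the probe sets gave a gene difference of -1.52, which passed with any single array left out.

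Genes that flank *TBPH* were close to equal in the alleles. In the RefSeq gene order (assembly Release 6 plus ISO1 MT), 1 of the 20 nearest measured genes, 10 on each side, passed the test, where 3.49% of all genes did. It was *TM4SF*, a tetraspanin-like membrane protein gene, at -0.35 (limma adjusted p = 0.0494), a call that was lost with any single array left out (adjusted p 0.0743 to 0.166). The direct neighbours *Pym*, whose product acts on exon junction complexes, and *Cpes*, which encodes a ceramide phosphoethanolamine synthase, differed by -0.09 and -0.04, and the 20 differences ranged from -0.35 to 0.16.

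Among the gene lists examined, the yolk protein genes had the largest median rise in *tbph*Δ142. *Yp1*, *Yp2* and *Yp3*, all on the X chromosome, encode the vitellogenins of the fly, which are made in the fat body and ovary of females and taken up by the egg. All 3 were higher in *tbph*Δ142, in a comparison where 1.42% of genes were. *Yp2* read 8.60, 9.68 and 9.68 in *tbph*Δ23 and 12.47, 11.87 and 12.13 in *tbph*Δ142, with *w1118* at 12.75, 12.44 and 12.93. The *tbph*Δ142 arrays lay near the controls and the *tbph*Δ23 arrays well below both. The difference between the alleles was 2.84 ± 0.26 (SE, limma adjusted p = 1.64e-04), or 7.14-fold, and it was the largest rise of any gene that passed. *Yp3* read 10.21, 10.41 and 10.65 in *tbph*Δ23 against 12.77, 12.17 and 12.52 in *tbph*Δ142, a difference of 2.06 (adjusted p = 0.00979). *Yp1* read 9.80, 11.12 and 11.54 against 12.97, 12.67 and 12.58, a difference of 1.92 (adjusted p = 0.0123) that did not pass without *tbph*Δ142 replicate 1 (adjusted p = 0.0523). In none of the 3 genes did the alleles overlap, and 10.7% of all genes were higher in *tbph*Δ142 without overlap. In the rescue, which shares the *tbph*Δ23 allele but also carries the 2 transgenes and received RU-486, *Yp2* read 13.95 to 14.04, above every mutant and control array. Against *w1118* the *Yp2* difference was -3.39 in *tbph*Δ23 (adjusted p = 4.33e-06) and -0.55 in *tbph*Δ142 (adjusted p = 0.152).

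**Figure D1:**
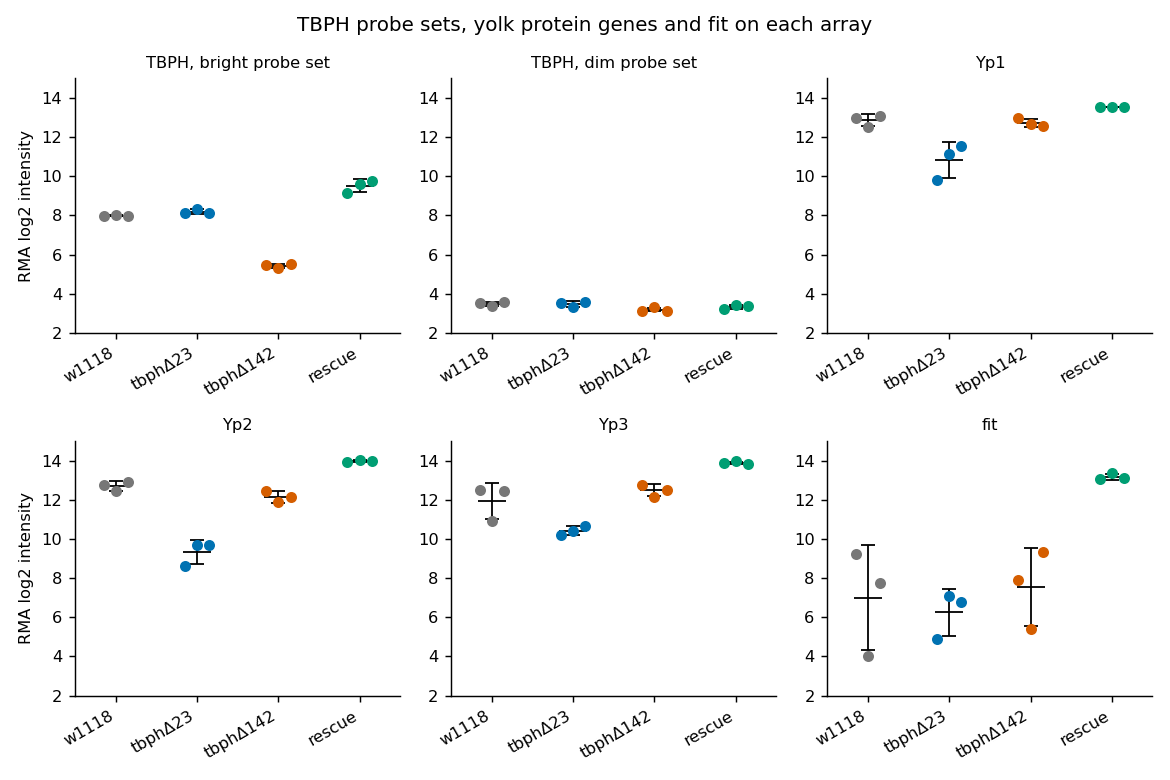
RMA log2 intensity (vertical axis) of the *TBPH* probe sets, the yolk protein genes and *fit* on each array of the 4 groups (horizontal axis). Points are arrays, and the bars are the mean and SD of 3 arrays. The bright *TBPH* probe set is low only in *tbph*Δ142, at 5.32 to 5.52, the *Yp* genes are lower in *tbph*Δ23 than in *tbph*Δ142, and *fit* overlaps between the alleles.

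No other member of the lists of female-biased head genes and fat body markers passed. *fit*, a female-biased gene of the fat body around the brain, read 4.87, 7.09 and 6.77 in *tbph*Δ23 and 7.90, 5.40 and 9.33 in *tbph*Δ142. The alleles overlapped, and its difference of 1.30 had a 95% confidence interval of -1.37 to 3.97 (adjusted p = 0.684). The *w1118* arrays were as far apart, at 9.24, 4.03 and 7.74. Of 3 measured male-biased head genes none passed, and the largest difference was 0.54 in *Cyp4d21*, a cytochrome P450 gene (adjusted p = 0.720). The 5 measured fat body markers differed by 0.18 to 0.59, and none passed. Their mean log2 level was 7.46 to 8.08 in *tbph*Δ23 and 7.43 to 8.57 in *tbph*Δ142, against 8.79 to 9.31 in *w1118*. Markers of ovary and eggshell had mean levels of 3.69 to 3.76 in both alleles, near the bottom of the scale, and none of 10 passed. In whole heads, fewer cells of a type and less RNA per cell cannot be told apart, and the part of fat body or of sex in the *Yp* differences was not tested.

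Some genes of one-carbon metabolism were higher in *tbph*Δ142. This network moves single-carbon units carried by folate and by S-adenosylmethionine into purines, thymidylate and methyl groups, with serine and glycine as main donors. Of 28 measured genes 10 passed as higher in *tbph*Δ142 and none as lower, which is 35.7% called, against 1.42% of all genes in that direction. Of the 28 genes 21 stood above 0 and 7 below. Without overlap 13 were higher and 4 lower, against 10.7% and 13.4% of all genes. The lowest was *AhcyL1* at -0.34 (limma adjusted p = 0.0993). The median difference of the 28 genes was 0.21, against -0.0021 over all genes, so the shift came from part of the list. All 10 remained higher with each single array left out, though 5 to 8 of the list passed then.

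Purine synthesis held the members with the most calls, 4 of 6 (66.7%, where 1.42% of all genes were higher). *Pfas*, which encodes a formylglycinamidine synthase of the pathway, read 9.27, 9.17 and 9.18 in *tbph*Δ23 and 10.38, 10.32 and 10.17 in *tbph*Δ142, with *w1118* at 7.85, 7.76 and 7.86. The alleles were tight and separate, and both lay above the controls. The difference between them was 1.08 ± 0.12 (SE, limma adjusted p = 7.29e-04), or 2.12-fold. *Gart*, a trifunctional enzyme that uses formyl-folate, was 0.96 higher (9.21, 9.35 and 9.11 against 10.31, 10.08 and 10.15, adjusted p = 0.00450). *Prat2*, one of the genes for the first enzyme of the pathway, was 0.66 higher (adjusted p = 0.0283), while its paralogue *Prat* stood at -0.23 (adjusted p = 0.222). *Adsl*, adenylosuccinate lyase, was 0.58 higher (adjusted p = 0.0302), and *Paics* stood at 0.33 (adjusted p = 0.184). *Pfas* and *Gart* passed with any single array left out, and *Prat2* and *Adsl* with none (adjusted p up to 0.104).

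In the folate cycle 2 of 7 genes were higher (28.6%, where 1.42% of all genes were). *pug*, which encodes the trifunctional cytosolic folate enzyme, read 9.57, 9.66 and 9.56 in *tbph*Δ23 and 10.77, 10.33 and 10.53 in *tbph*Δ142, a difference of 0.94 (limma adjusted p = 0.0122). Its *tbph*Δ23 arrays lay within reach of *w1118*, at 9.29 to 9.61, so only the other allele stood apart. It failed without *tbph*Δ23 replicate 3 (adjusted p = 0.0547) or *tbph*Δ142 replicate 1 (0.0520). *Shmt*, which takes the carbon unit from serine, was 0.65 higher (10.39, 10.39 and 10.41 against 11.10, 10.92 and 11.11, adjusted p = 0.0111). *Nmdmc*, the mitochondrial folate dehydrogenase, read 10.12 to 10.25 in *tbph*Δ23 and 9.91 to 10.01 in *tbph*Δ142, with a difference of -0.23 (adjusted p = 0.576), and both alleles were above the 8.16 to 8.42 of *w1118*. The reductase *CG7560*, thymidylate synthase *Ts* and folylpolyglutamate synthase *Fpgs1* differed by 0.18, 0.02 and -0.21 and did not pass.

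In the methionine cycle 3 of 9 genes were higher (33.3%, where 1.42% of all genes were). *CG10621*, a homocysteine methyltransferase gene, read 6.59, 6.73 and 6.88 in *tbph*Δ23 and 8.03, 7.77 and 7.59 in *tbph*Δ142, with *w1118* at 8.78, 8.92 and 9.10. Here both alleles lay below the controls, *tbph*Δ23 by 2.20 (-2.20, adjusted p = 1.90e-06) and *tbph*Δ142 by 1.14 (-1.14, adjusted p = 1.44e-04), and the difference between them was 1.06 (adjusted p = 0.00304). *Ahcy*, which clears S-adenosylhomocysteine, was 0.81 higher (8.65, 8.37 and 8.49 against 9.44, 9.17 and 9.31, adjusted p = 0.00471), with the *tbph*Δ23 arrays at the level of *w1118*. *Sardh*, sarcosine dehydrogenase, was 0.90 higher (adjusted p = 0.0245), a call kept only without *tbph*Δ142 replicate 2 (adjusted p up to 0.112 in the other fits). *Gnmt*, which consumes S-adenosylmethionine and makes sarcosine, read 10.62, 10.16 and 10.28 in *tbph*Δ23 and 11.31, 10.69 and 11.18 in *tbph*Δ142. The difference of 0.71 did not pass (adjusted p = 0.407, 95% confidence interval -0.13 to 1.55). *Sam-S*, which makes S-adenosylmethionine, differed by 0.20 (adjusted p = 0.520). Of the 4 glycine cleavage genes, *CG3999*, the glycine decarboxylase, was 0.63 higher (adjusted p = 0.0385, not passing with any single array left out), and the aminomethyltransferase gene *CG6415* stood at 0.46 (adjusted p = 0.0798). *Tdh*, threonine dehydrogenase, which yields glycine, was not on the list and was named after its values were seen. It read 7.87, 7.89 and 7.88 in *tbph*Δ23 and 9.04, 8.80 and 8.58 in *tbph*Δ142 (difference 0.93, adjusted p = 0.00786).

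**Figure D2:**
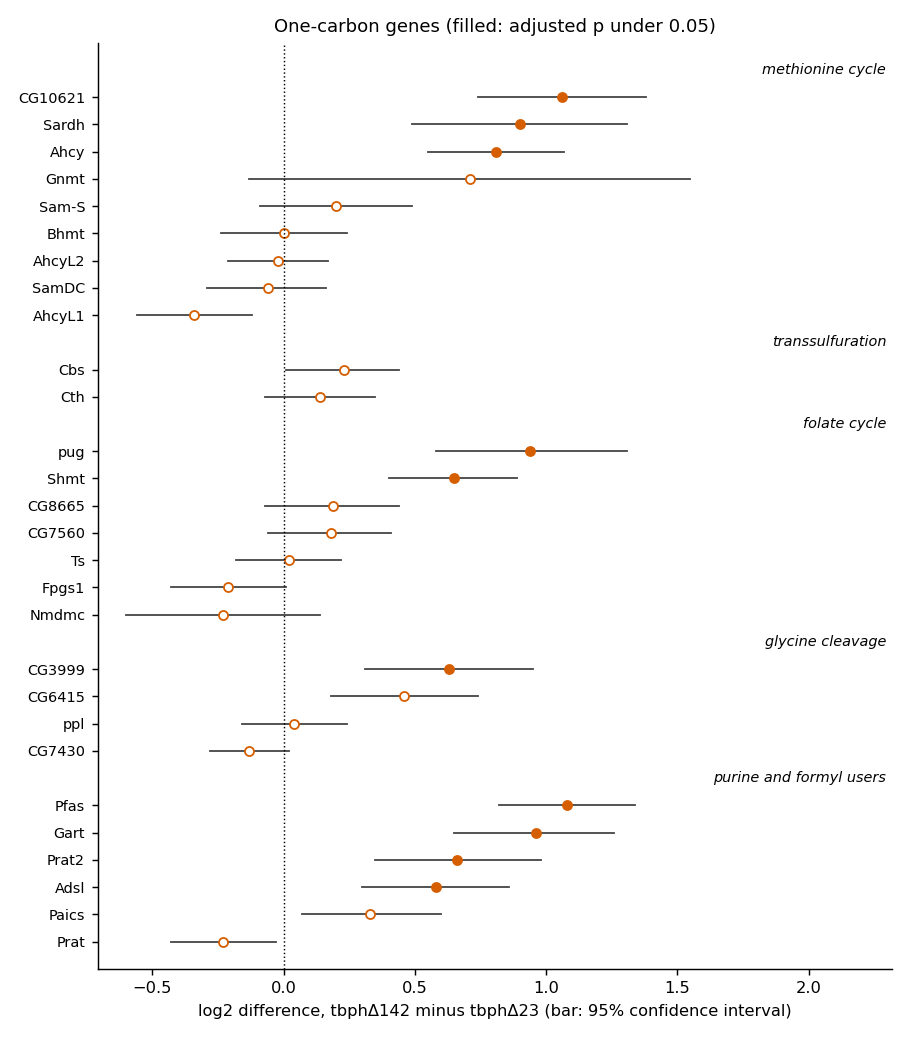
Difference between the alleles in log2 intensity (horizontal axis, *tbph*Δ142 minus *tbph*Δ23) for 28 one-carbon genes grouped by role (vertical axis). Points are estimates, filled where the adjusted p was under 0.05, and lines are 95% confidence intervals. The 10 filled points lie between 0.58 and 1.08, and most other members lie near 0.

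Proteasome subunits were lower in *tbph*Δ142 as a group, by a small amount. The 26S proteasome degrades ubiquitin-tagged proteins in its 20S core, built of alpha and beta rings, and its 19S cap, with a base of ATPases and a lid, admits them. All 27 measured subunits of the 33 listed stood below 0 in *tbph*Δ142, and in all 27 the arrays of the alleles did not overlap, as was the case for 13.4% of all genes, where 50.7% of all genes stood below 0. The differences ranged from -0.58 to -0.24 with a median of -0.39. Over the 27 subunits the mean log2 level was 10.41, 10.38 and 10.63 in *tbph*Δ23 against 10.07, 9.99 and 10.15 in *tbph*Δ142. It was 11.08, 11.50 and 11.08 in *w1118* and 9.11, 8.92 and 9.04 in the rescue. The order of the groups was thus *w1118*, *tbph*Δ23, *tbph*Δ142 and rescue, with no overlap between neighbours.

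Singly, 5 of the 27 subunits passed the test (18.5%, against 2.07% of all genes in that direction), 4 of them in the lid. *Rpn3*, a scaffold subunit of the lid, read 10.41, 10.37 and 10.66 in *tbph*Δ23 and 9.88, 9.77 and 10.04 in *tbph*Δ142, a difference of -0.58 ± 0.13 (SE, limma adjusted p = 0.0331). *Rpn11*, the deubiquitinase of the lid, was lower by 0.54 (-0.54, adjusted p = 0.0477), *Rpn6* by 0.51 (-0.51, adjusted p = 0.0124) and *Rpn5* by 0.49 (-0.49, adjusted p = 0.0364). In the base, the ATPase *Rpt2* was lower by 0.45 (-0.45, adjusted p = 0.0470). The subcomplex medians were alike, at -0.43 for the alpha ring, -0.37 for the beta ring, -0.37 for the base and -0.45 for the lid. The smallest differences were those of the base ATPase *Rpt4* (-0.24, adjusted p = 0.304) and the lid subunit *Rpn8* (-0.26, adjusted p = 0.313). No ring subunit passed, the nearest being *Prosalpha5* at -0.49 (adjusted p = 0.0727). The catalytic subunits *Prosbeta5* and *Prosbeta2* differed by -0.35 (adjusted p = 0.178) and -0.37 (adjusted p = 0.137). With any single array left out 0 or 1 subunit passed. It was *Rpn6* in 5 fits and none without *tbph*Δ23 replicate 3 (*Rpn6* limma adjusted p = 0.0547). The median difference stayed between -0.45 and -0.32. In a fit of the 6 mutant arrays alone 18 subunits passed. The main fit pools the spread of all 4 groups, and the *w1118* arrays had mean subunit levels of 11.08, 11.50 and 11.08. The part of that spread in these counts was not tested.

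**Figure D3:**
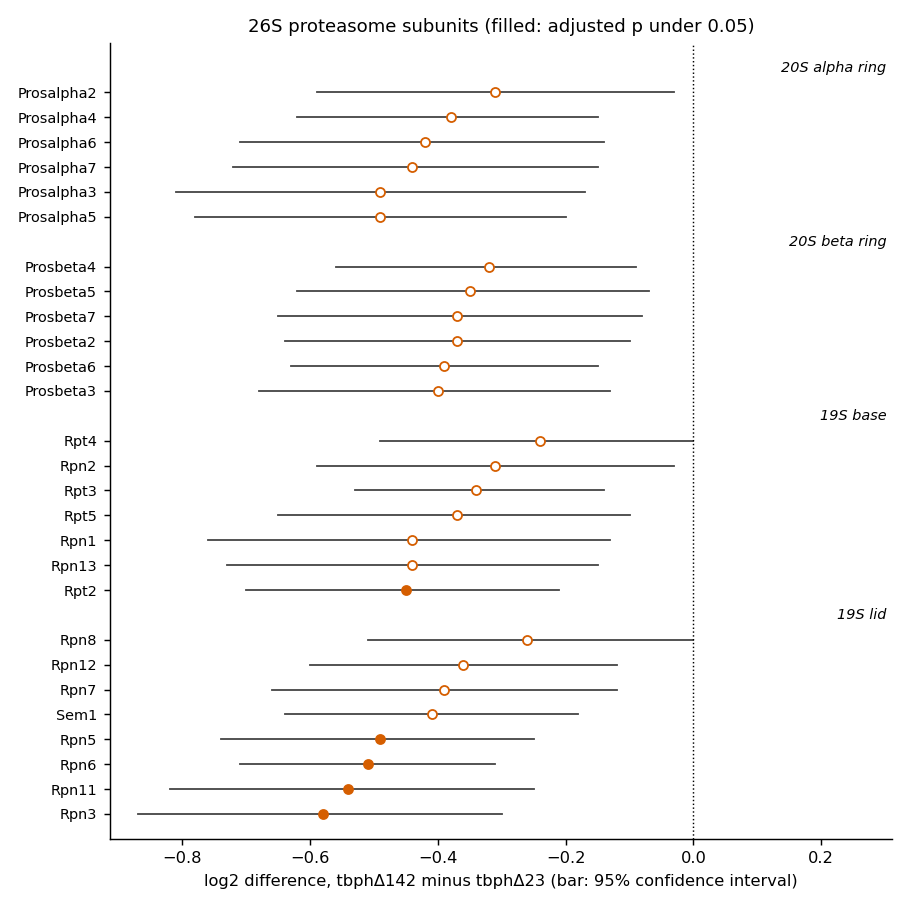
Difference between the alleles in log2 intensity (horizontal axis, *tbph*Δ142 minus *tbph*Δ23) for 27 proteasome subunits by subcomplex (vertical axis). Points are estimates, filled for the 5 subunits with an adjusted p under 0.05, and lines are 95% confidence intervals. All estimates lie between -0.58 and -0.24.

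Among related genes, the difference of extent from the 27 subunits was not tested. Of 13 subunit variants that flies express in the testis, 10 stood above 0, the median was 0.03, and *Prosbeta2R1*, at an intensity near the bottom of the scale, was 0.27 higher in *tbph*Δ142 (limma adjusted p = 0.0271, kept only without *tbph*Δ23 replicate 1 and up to 0.101 in the other fits). Among 15 measured cofactors and regulators, including the shuttle factor *Rad23* and the segregase *TER94*, none passed, with a median of -0.17 and a range of -0.54 to 0.11. Of these 15 genes 12 stood below 0, and 7 were lower without overlap, against 50.7% and 13.4% of all genes. In other large complexes the medians lay near 0, and none of 64 oxidative phosphorylation subunits, 69 mitochondrial ribosomal proteins, 27 V-ATPase subunits or 16 tRNA synthetases passed, with medians of -0.01, -0.04, -0.04 and -0.02. Below 0 stood 53 of the 69 mitochondrial ribosomal protein genes, 7 of them without overlap, and 15 of the 27 V-ATPase genes, 6 without overlap. Of all genes 13.4% were lower without overlap. Of 34 cytosolic ribosomal protein genes 1 passed (2.94%, where 3.49% of all genes passed). It was *RpL27*, at 0.27 (adjusted p = 0.0305), a call lost with any single array left out (adjusted p 0.0641 to 0.131). Of the 34 genes 29 stood above 0, around a median of 0.05. Without overlap 9 of them were higher, as were 10.7% of all genes.

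The 12 genes with the largest rise in *tbph*Δ142 held enzymes and secreted proteins beside the yolk genes. *Sid*, which encodes a stress-induced nuclease, read 7.21, 6.95 and 6.79 in *tbph*Δ23 and 9.14, 9.16 and 9.65 in *tbph*Δ142, with *w1118* at 8.51 to 9.34. The difference between the alleles was 2.33 or 5.04-fold (limma adjusted p = 5.97e-04). Like the yolk genes, it was low in *tbph*Δ23 and at the control level in *tbph*Δ142. The cuticle protein gene *Cpr11B* (6.95, 6.50 and 6.62 against 8.59, 8.58 and 8.41, difference 1.83, adjusted p = 0.0175) and the UDP-glycosyltransferase gene *Ugt35C1* (6.02, 6.42 and 5.71 against 7.95, 7.54 and 7.58, difference 1.64, adjusted p = 0.00102) had the same order. In *hll*, *CG7900* and *CG6654*, *tbph*Δ23 differed from the controls by -0.01, 0.12 and 0.04 (adjusted p = 0.985, 0.575 and 0.798) and *tbph*Δ142 lay above both. *hll*, an acyl-CoA synthetase gene, read 5.35, 4.98 and 5.08 against 6.58, 7.20 and 6.90 (difference 1.76, adjusted p = 0.00578), and *CG7900* rose by 1.66 (adjusted p = 3.53e-05). *Miox*, which encodes the oxygenase that breaks down inositol, was 1.54 higher (7.32, 7.75 and 7.42 against 9.29, 8.86 and 8.96, adjusted p = 0.0122). *CG6654* was higher by 1.17. *CG6912* and *CG13833* were higher by 1.33 and 1.28, and in these *tbph*Δ23 was itself above *w1118*, by 0.80 (adjusted p = 6.51e-04) and 0.95 (adjusted p = 0.0400). Of the 12 genes 8 passed with any single array left out, and the exceptions were *Yp1* (above), *Miox*, *Cpr11B* and *CG13833*. *Miox* did not pass without *tbph*Δ23 replicate 3 (adjusted p = 0.0547) or *tbph*Δ142 replicate 1 (0.0523), *Cpr11B* passed only without *tbph*Δ23 replicate 1 (up to 0.0738 in the other fits), and *CG13833* passed in none of the 6 fits (0.0776 to 0.161).

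The 12 genes with the largest fall were mostly of unknown function, and 8 of them lie on arm 3R, which has 2975 of the 11982 genes tested. *CG8483* read 11.10, 11.04 and 11.03 in *tbph*Δ23 and 8.26, 7.71 and 7.94 in *tbph*Δ142, with *w1118* at 8.97, 9.40 and 9.08. The difference was -3.08 (limma adjusted p = 6.97e-06), and the alleles lay on either side of the controls. *IFT54*, an intraflagellar transport gene that ciliated neurons use, read 8.11, 8.37 and 8.10 in *tbph*Δ23 and 5.50, 5.93 and 5.73 in *tbph*Δ142, against 4.73 to 4.75 in *w1118* (difference -2.47, adjusted p = 1.05e-06). It was above the controls in both alleles (adjusted p = 3.62e-09 in *tbph*Δ23 and 5.82e-05 in *tbph*Δ142). Its signal was 5.56-fold lower in *tbph*Δ142 than in *tbph*Δ23. *MtnD*, a metallothionein gene that binds copper and zinc, read 10.11, 9.30 and 9.16 in *tbph*Δ23 and 6.82, 6.90 and 6.96 in *tbph*Δ142, against 4.68, 5.91 and 4.70 in *w1118* (difference -2.63, adjusted p = 0.0283). The fit pools the spread of all 4 groups, an SD of 1.40 in the rescue among them, and the call was lost with any single array left out (adjusted p 0.0740 to 0.0913). The paralogues *MtnA*, *MtnB* and *MtnC* differed by 0.29, 0.24 and -0.04 and did not pass. A second kind of gene was at the control level in *tbph*Δ23 and low in *tbph*Δ142. *Arc42*, annotated as an acyl-CoA dehydrogenase gene, read 7.67, 7.61 and 7.74 in *tbph*Δ23 and 5.71, 6.07 and 5.96 in *tbph*Δ142 (difference -1.76, adjusted p = 3.65e-06), and *CG11668* read 6.25 to 6.38 against 4.25 to 4.58 (difference -1.92, adjusted p = 3.53e-05). *lush*, an odorant-binding protein needed to sense a male pheromone, read 7.18, 7.12 and 7.58 against 5.00, 5.34 and 5.61 (difference -1.97, adjusted p = 0.0182). The rest were *CG11893* (-2.47), *CG2444* (-2.10), *CG14598* (-1.92), *frm* (-1.58), *CG11951* (-1.56) and *TBPH*. Of the 12 genes 9 passed with any single array left out, and the exceptions were *MtnD*, *lush* and *frm*. *lush* passed only without *tbph*Δ23 replicate 1 or *tbph*Δ142 replicate 3 (adjusted p up to 0.0832 in the other fits), and *frm* only without *tbph*Δ23 replicate 1 (up to 0.109).

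The other genes that differed at least 2-fold, beside *Pfas* and *CG10621*, were named after their values were seen, apart from *Hsp26*. Higher in *tbph*Δ142 were *glob1*, a globin gene of the tracheae and fat body, at 1.04 (limma adjusted p = 1.64e-04), and *CG42369* (1.11), *CG5819* (1.05), *CG7829* (1.02) and *CG31205* (1.01). *glob1* read 10.58, 10.65 and 10.46 in *tbph*Δ23 and 11.58, 11.59 and 11.64 in *tbph*Δ142, with the first at the control level of 10.39 to 10.62. Lower were *Ldsdh1*, a lipid droplet dehydrogenase gene (-1.52), the small heat shock protein gene *Hsp26* (-1.52, adjusted p = 0.0135), the chitinase gene *Cht5* (-1.13), *Osi2* (-1.14), *cysu* (-1.09) and *e* (-1.01, adjusted p = 0.0139), and 5 genes known by number, *CG9360* (-1.26), *CG9733* (-1.20), *CG6125* (-1.15), *CG5909* (-1.09) and *CG13639* (-1.04). *e*, *ebony*, encodes the enzyme that joins beta-alanine to dopamine in tanning and in glia. It read 9.57, 9.67 and 9.55 in *tbph*Δ23 and 8.62, 8.54 and 8.58 in *tbph*Δ142, against 9.42 to 9.67 in *w1118*, and its call was kept only without *tbph*Δ23 replicate 1 or *tbph*Δ142 replicate 1 (adjusted p up to 0.0547 in the other fits). Other measured pigmentation genes, *Ddc*, *ple*, *t*, *y*, *speck* and *yellow-f*, differed by -0.26 to 0.14, and none passed. *Hsp26* was the only 1 of 13 measured heat shock protein genes to pass (7.69%, where 3.49% of all genes passed). Its call was lost without *tbph*Δ142 replicate 1 (limma adjusted p = 0.0600), *tbph*Δ142 replicate 3 (0.0575) or *tbph*Δ23 replicate 2 (0.0571).

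Antimicrobial peptide genes, which the Imd and Toll immune pathways switch on, stood far above *w1118* in both alleles, by a median of 3.46 in *tbph*Δ23 and 3.43 in *tbph*Δ142 over the 6 measured. Between the alleles 1 of them passed (16.7%, where 3.49% of all genes passed). *CecB*, a cecropin gene, read 9.10, 9.57 and 9.93 in *tbph*Δ23 and 8.67, 8.64 and 8.94 in *tbph*Δ142, with *w1118* at 4.91 to 5.16. Its difference was -0.78 (limma adjusted p = 0.0449). The alleles did not overlap, and the call was kept only without *tbph*Δ23 replicate 1 and lost with each other single array left out (adjusted p up to 0.157). *Drs*, which encodes the antifungal peptide drosomycin, was 2.03 and 2.05 above *w1118* in *tbph*Δ23 and *tbph*Δ142, and the alleles differed by 0.01 (adjusted p = 0.991, 95% confidence interval -0.35 to 0.38). *PGRP-LA*, a peptidoglycan recognition protein gene, read 8.92, 8.85 and 9.05 in *tbph*Δ23 and 8.30, 8.34 and 8.31 in *tbph*Δ142 (difference -0.63, adjusted p = 0.00320). It was the only 1 of 23 measured recognition and signalling genes to pass, a share of 4.35%, close to that of all genes. In the other direction *BomT3*, a Bomanin peptide gene, was 0.68 higher in *tbph*Δ142 (limma adjusted p = 0.0245), and *TotF*, a Turandot stress gene, was 0.76 higher (adjusted p = 0.0495). These calls were kept only without *tbph*Δ23 replicate 1 and only without *tbph*Δ142 replicate 3 (adjusted p up to 0.112 and 0.192 in the other fits). *BomT3* was the only 1 of 12 measured Bomanin and induced peptide genes to pass (8.33%, where 3.49% of all genes passed), and 11 of the 12 stood above 0. *TotF* was the only 1 of 8 measured JAK-STAT and Turandot genes to pass (12.5%), and 7 of the 8 stood above 0. Of all genes 50.7% stood below 0. Among 9 hemocyte markers 1 passed (11.1%, where 3.49% of all genes passed). It was *NimC1*, a phagocytosis receptor gene, which was 0.47 higher in *tbph*Δ142 (limma adjusted p = 0.0370, kept only without *tbph*Δ23 replicate 2 or *tbph*Δ142 replicate 1, and up to 0.156 in the other fits). The mean log2 level of the 9 markers was 4.98 to 5.12 in *tbph*Δ23 and 5.23 to 5.42 in *tbph*Δ142.

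Detoxification and chemosensory families held scattered calls, all higher among glutathione S-transferase genes and in both directions among cytochrome P450 and odorant-binding protein genes. Of 34 glutathione S-transferase genes 4 were higher in *tbph*Δ142 and none lower (11.8%, where 1.42% of all genes were higher), namely *GstO1* (0.62, limma adjusted p = 0.0111), *GstD3* (0.52, adjusted p = 0.00727), *GstD9* (0.39, adjusted p = 0.0283) and *GstO2* (0.37, adjusted p = 0.0323). *GstD3* passed with any single array left out, *GstO1* failed only without *tbph*Δ23 replicate 3 (adjusted p = 0.0533), *GstD9* was kept only without *tbph*Δ23 replicate 1 or *tbph*Δ142 replicate 1 (up to 0.117), and *GstO2* in no fit (0.0503 to 0.127). The median over the 34 genes was 0.07. Of 80 cytochrome P450 genes 3 were higher and 2 lower (6.25%, where 3.49% of all genes passed), among them *Cyp309a1* (0.62, adjusted p = 0.0214, lost with any single array left out) and *Cyp313a1*, which read 11.36 to 11.63 in *tbph*Δ23 and 10.55 to 10.78 in *tbph*Δ142 (-0.82, adjusted p = 0.00195). Among 47 odorant-binding protein genes 2 were higher and 1 lower (6.38%, against the same 3.49%), with *Obp8a* at 0.71 (adjusted p = 0.0245, kept only without *tbph*Δ23 replicate 2 or *tbph*Δ142 replicate 2), *Obp56g* at 0.49 (adjusted p = 0.0450) and *Obp57b* at -0.30 (adjusted p = 0.0426), the last pair lost with any single array left out (0.0698 to 0.179 and 0.0842 to 0.139). *lush*, of the same family, was not on that list.

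The share of genes that differed was not the same along the genome. Arm 3R, which has 2975 of the 11982 genes tested, held 161 of the 418 genes. They were 5.41% of its genes, where 3.49% of all genes passed, with 54 higher and 107 lower in *tbph*Δ142. The X chromosome had 4.11%, arm 3L 3.33%, arm 2L 2.45% and arm 2R, which carries *TBPH*, 1.77%. The small chromosome 4 had the highest share, 6.15%, though from only 4 of 65 genes. The alleles did not overlap in 43.1% of its genes, against 26.9% on arm 3R and 24.1% of all genes, and its median difference was -0.079. Of the 42 genes that differed at least 2-fold, 25 lie on arm 3R, 9 higher and 16 lower, and 2 lie on arm 2R, *TBPH* being one of them. When the genes of arm 3R were cut into 10 equal parts in their order, the share called was 2.35% in the first part and 3.69% to 7.74% in the other 9, so the calls were spread over the arm. The median difference of all genes on arm 3R was -0.005, close to that of the other large chromosome arms.

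**Figure D4:**
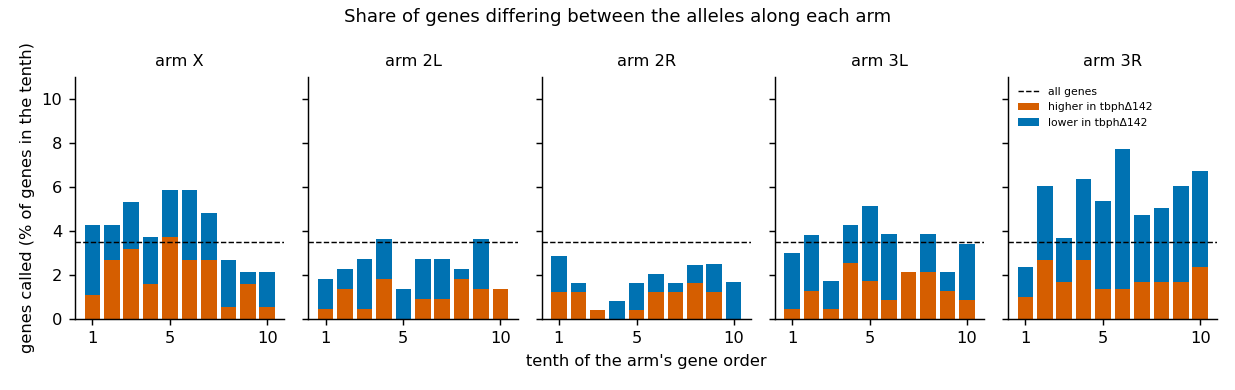
Share of measured genes that differed between the alleles (vertical axis, percent) in each of 10 equal parts of the gene order (horizontal axis) of the 5 large chromosome arms, split by direction. The dashed line is the share over all genes, 3.49%. The bars are highest on arm 3R, at up to 7.74%, and stay below the line on arm 2R.

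Several genes varied widely between the arrays of an allele. Over 3 arrays the SD exceeded 1 in 18 genes in *tbph*Δ23 and in 12 genes in *tbph*Δ142, with 9 genes in both. None of the 9 passed the test between the alleles. This spread enters the standard error of that test, so nothing is concluded from the outcome. *Obp83b*, an odorant-binding protein gene of the antenna, read 7.60, 3.37 and 3.34 in *tbph*Δ23 and 3.10, 3.35 and 6.07 in *tbph*Δ142. Only *tbph*Δ23 replicate 1 and *tbph*Δ142 replicate 3 were high, and the others lay near the *w1118* range of 3.04 to 3.18. The same arrays were high in the antennal genes *Os-C* (7.39, 3.70 and 3.52 against 4.24, 3.60 and 5.99) and *a10* (7.22, 4.17 and 4.05 against 4.05, 4.21 and 5.68). Over 9 antennal and olfactory genes, listed after these values were seen, the mean log2 level was 6.82, 4.69 and 4.80 in *tbph*Δ23 and 4.47, 4.59 and 5.59 in *tbph*Δ142. With both of these arrays left out, 115 genes passed, of which 106 were among the 418, the *Yp* genes kept 2 calls, the one-carbon genes 3 of 10 and the proteasome subunits 0.

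Other genes of this kind followed other arrays. *Lsp2*, a storage protein gene of the fat body, read 6.02, 8.54 and 8.38 in *tbph*Δ23 and 9.31, 5.98 and 9.43 in *tbph*Δ142, low in *tbph*Δ23 replicate 1 and *tbph*Δ142 replicate 2, as was *fit*. *Diedel*, a secreted immune regulator, read 9.36, 6.44 and 4.92 against 7.28, 10.60 and 10.92, and its difference of 2.69 did not pass (limma adjusted p = 0.212, 95% confidence interval 0.41 to 4.97). *TotC*, a Turandot gene, read 11.43, 9.40 and 8.16 against 10.21, 12.03 and 12.54 (difference 1.93, adjusted p = 0.220). *AttD*, an attacin gene, read 9.86, 10.24 and 8.68 against 10.25, 10.87 and 7.97, and was above *w1118* in every mutant array. In each of these genes the arrays of the alleles overlapped.

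**Figure D5:**
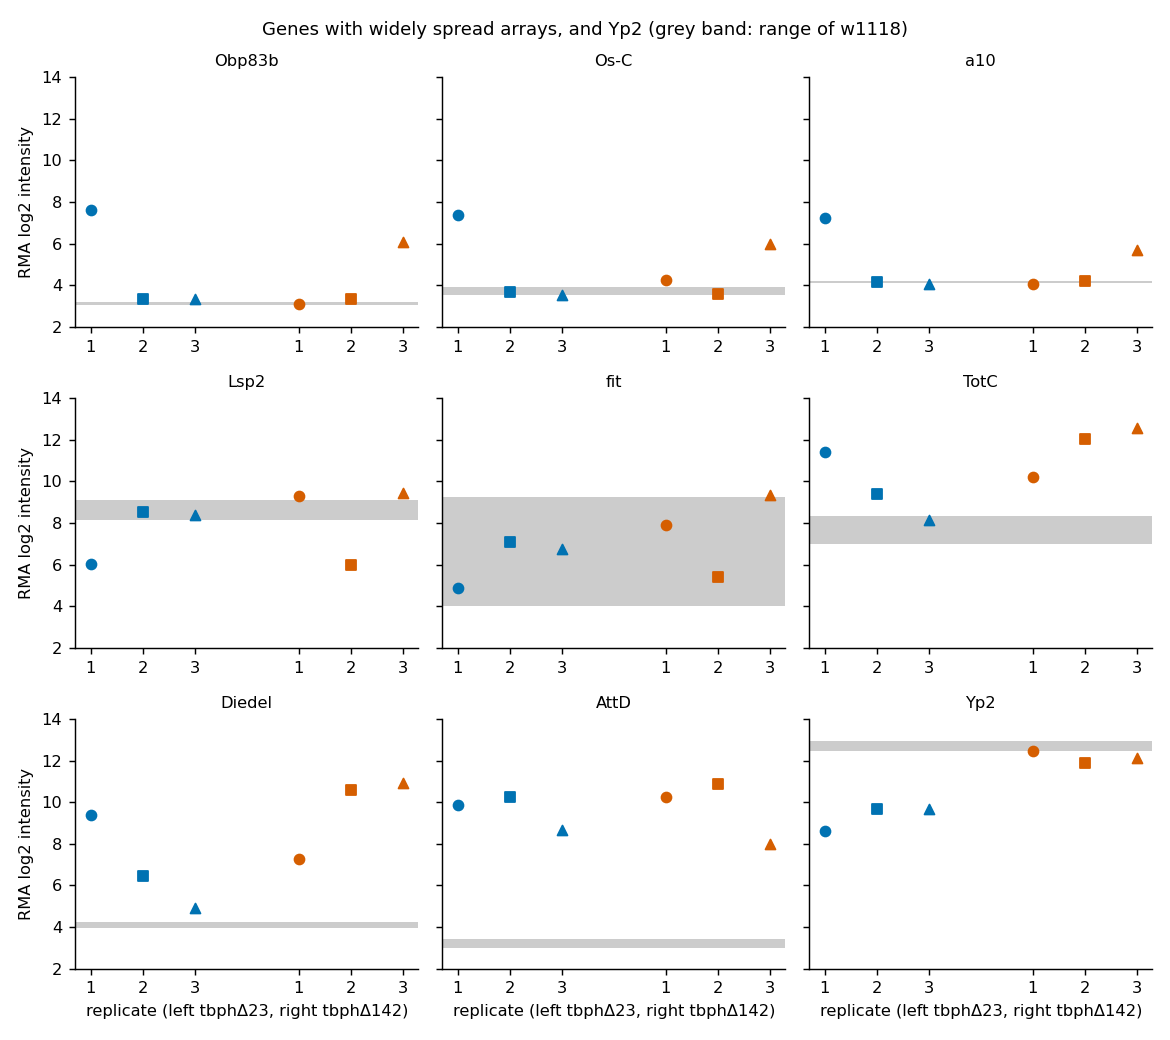
RMA log2 intensity (vertical axis) of 8 genes with widely spread arrays, and of *Yp2*, on the 6 mutant arrays by replicate (horizontal axis, *tbph*Δ23 left, *tbph*Δ142 right). The grey band is the range of 3 *w1118* arrays. *Obp83b*, *Os-C* and *a10* are high on *tbph*Δ23 replicate 1 and *tbph*Δ142 replicate 3, *Lsp2* and *fit* are low on *tbph*Δ23 replicate 1 and *tbph*Δ142 replicate 2, and *Yp2* separates the alleles without overlap.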

How the data were processed

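Values were taken from the deposited log2 table of 12 Affymetrix Drosophila Genome 2.0 arrays, in which the authors had extracted RNA from heads with TRIzol, labelled it by 3′ in vitro transcription, and background-corrected, quantile-normalized and summarised the probes by RMA (version not given in the sources used here). No detection calls were used, so dim genes are near-background values. Of 18952 probe sets, 13647 name 1 gene in the platform annotation, with symbols updated through RefSeq for 13544. Their medians gave 11982 genes.

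limma (3.58.1, R 4.3.3) fitted 4 group means to 12 arrays. The contrast *tbph*Δ142 minus *tbph*Δ23 was tested two-sided, with Benjamini-Hochberg adjustment over all genes and a threshold of 0.05. The procedure was tested on simulated data. Shared replicate numbers did not pair the arrays (correlations of same-numbered residuals -0.212, 0.0502 and -0.0845), so no block was used. Labels do not tell separate extractions from separate flies beyond the term biological replicate, so p-values measure the spread between these arrays.

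Named genes were *TBPH* and its 10 nearest measured genes on each side, the members of the yolk, proteasome and one-carbon lists, the 12 largest rises and falls among genes that passed without overlap, up to 4 members that passed in each other list, and the 5 genes with the largest SD within each allele. Members and lists were chosen with earlier results of these data known. Alternatives changed the arrays fitted, the scaling, the filter on dim genes, the variance prior, the probe set summary and the block.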

Additional observations from a re-analysis of the deposited data

Results flagged for a closer look

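In some genes that passed the test, the alleles lay on opposite sides of all *w1118* arrays. There were 41 such genes, 29 with *tbph*Δ23 above and *tbph*Δ142 below the controls and 12 the other way round. The difference between the alleles was tested by the limma contrast itself. The side of the controls was judged by array order alone, and the share of all genes with this order was not computed. The first kind held *CG8483* (-3.08), *CG14598* (-1.92), *CG11951* (-1.56), the *TBPH* gene median (-1.52), *CG6125* (-1.15), *CG5909* (-1.09) and *CG4686* (-0.99), and the second held *CG8112* (0.95), given as log2 differences of *tbph*Δ142 minus *tbph*Δ23. Against *w1118*, *TBPH* (limma adjusted p = 0.521) and *CG11951* (0.175) did not pass in *tbph*Δ23. *CG14598* (0.0851) and *CG8112* (0.162) did not pass in *tbph*Δ142. The others named here passed against *w1118* in both alleles.

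Probe sets that name no single gene were left out of the gene table. Of 5122 such probe sets, 43 differed between the alleles in limma (0.840%), 13 higher and 30 lower in *tbph*Δ142, and 7 of them name several genes. The largest differences were in 1629242_x_at (-2.39), which read 4.49, 4.79 and 4.76 in *tbph*Δ142, 6.82, 7.26 and 7.13 in *tbph*Δ23 and 4.50 to 4.62 in *w1118*, in 1630614_s_at (-1.40) and in 1630010_a_at (-1.39). Among those that name several genes, 1640746_at (-0.74) names *CG32939* and *CG18542*, and another names the cuticle protein genes *Ccp84Aa* and *Ccp84Ab* (-0.93).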

How the results depend on the processing

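The count of 418 genes was 134 to 289 with single arrays left out and 115 without *tbph*Δ23 replicate 1 and *tbph*Δ142 replicate 3, an alternative chosen after seeing the data. Calls higher in *tbph*Δ142 numbered 257 in a fit of the 6 mutant arrays alone, 49 to 117 with single arrays left out and 46 without both arrays, and calls lower 85 to 178 and 69. Of 5 proteasome calls there were 18 with the 6 mutant arrays alone, 3 with array medians centred, 10 with a mean log2 value of at least 5, 0 to 1 with single arrays left out and 0 without both arrays. One-carbon calls, 10 in all, fell to 5 to 8 and 3, and yolk calls were 2 to 3 and 2. The cause was not tested. Except for proteasome calls under the replicate block, given below, the other alternatives kept these counts within 1.5 times. Of the 418 genes 113 passed with every single array left out, and none of the 71 named genes that passed changed sign in any alternative. Among the 2996 genes of lowest intensity 0.300% were called, and the part of background signal in this share was not tested.

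With the replicate number as a block, 287 genes passed, 278 of them among the 418, with 9 one-carbon, 3 yolk and 1 proteasome call. Of the 6 arrays 2 correlated best with their own number, so the numbers are not read as pairs.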
